A study of Mus musculus with 24 samples.

Results

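Group 9 is a set of 188 single haematopoietic stem cells (HSCs) that share the number 9 in the record of an index sort, in which the cytometer's values were kept for the cell in each well. The 188 cells are 13.15% of the 1430 recorded cells, and 75, 37, 40 and 36 of them lay on sort plates 2, 3, 4 and 5, which held 356, 345, 361 and 368 cells. Values per plate follow this plate order. The record gives every cell a whole number from 1 to 10 and does not state how it was set. If the number came from the same transcripts, the differences in transcripts below describe how the groups were formed and their p-values test nothing independent of it. The cytometer channels were measured apart from the transcripts.

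All cells came from mice of the strain -60/DR5-TA-RA-CFP, which carries a cyan fluorescent protein (CFP) reporter, and were sorted as HSCs by the markers LSK, CD150+, CD48-, with mixed CFP status. The labels give no age and no treatment. Group 9 was set against the 869 cells of groups 2 to 5, which held 117, 169, 330 and 253 cells. Group 8, with 202 cells, and group 10, with 42 cells, served where group 9 was compared with other groups rich in cell-cycle transcripts. The labels list 8 single-cell batches, but the count table has no map from wells to batches, so the 4 plates stood in as replicates. They may hold cells of the same animals, so no error or p-value here measures the spread between animals. SDs and the permutation tests of plates reflect the spread between these plates, which may be technical. Errors and p-values of the gene fit rest mostly on a spread pooled over genes.

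Most HSCs of adult bone marrow rest outside the cell cycle, with little synthesis of RNA and protein. A cell that re-enters the cycle grows in G1, switches on the genes of DNA replication, copies its DNA in S phase while it makes new histones, and then expresses the genes of chromosome condensation, spindle and division in G2 and mitosis. Many of these transcripts are made in 1 phase and cleared in the next, so that those present in a cell mark its place in the cycle.

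Plate 2 stood apart from the other plates. Levels are given in CPM, which are the unique molecular identifiers (UMIs, each marking 1 captured transcript) of a gene scaled to the same total in every set of cells and plate. Within groups 2 to 5, 2141 genes had a mean of at least 100 CPM, and 124 of them were more than 2-fold lower on plate 2 than on any other plate. Plates 3, 4 and 5 had 1, 2 and 4 such genes. Across the 2141 genes, which are not independent replicates, the rank correlation of plate 2 with the others was 0.696 to 0.716, against up to 0.861 between the other plates. Eef1a1, a translation elongation factor, was at 152, 5120, 4193 and 3750 CPM in group 9, against 250, 6778, 5765 and 5205 CPM in groups 2 to 5. Because every set lay on every plate, the fit took plate as a block.

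Of the 2962 genes that passed the filter on low counts, 749 (25.3%) had an adjusted p under 0.05 between group 9 and groups 2 to 5 (edgeR quasi-likelihood test, Benjamini-Hochberg). Group 9 was higher for 397 genes (13.4% of those tested) and lower for 352 (11.9%), and the median log2 fold change of all tested genes was -0.025. Without plate 2, 666 genes were called. Of the 749 genes, 738 could be tested there, all 738 kept their direction, and 598 were called again. Without the plate block the count was 317 (210 higher and 107 lower). Group 9 cells were also paired with cells of groups 2 to 5 of like UMI total on the same plate. This matching left 119 cells in each set, and 140 of 1445 tested genes were called. The matched group 9 cells had a median of 1833 UMIs, against 2340.5 UMIs over the whole group. Those of groups 2 to 5 had a median of 1837 UMIs, where the medians of these groups ran from 974 to 1246 UMIs. Values with matched cells thus describe RNA-poorer cells of group 9 and RNA-richer cells of groups 2 to 5.

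Group 9 cells yielded more RNA. Their median was 1921, 2621, 2502 and 2902 UMIs per cell, against 1134, 1330, 1058 and 1117 UMIs in groups 2 to 5. The plates did not overlap, and group 9 was higher on 4 of 4 plates by a log2 ratio of 1.09 ± 0.275 (SD, n = 4), a 2.13-fold difference. An exact two-sided permutation of the plates' signs gave p = 0.13. With 4 plates no smaller p is possible, so that no test of this kind could reach 0.05 here. Detected genes per cell were 1429 ± 224 in group 9 and 763 ± 73.8 in groups 2 to 5. After thinning each cell to 1000 UMIs, which left out 10 of 188 group 9 cells and 301 of 869 cells of groups 2 to 5, the medians were 718 ± 12.4 and 692 ± 5.74 genes (SD over plates). Over whole groups, the median of group 9 was 2340.5 UMIs, that of group 8 was 1432.5 and that of group 10 was 1459, and the other groups ran from 974 (group 2) to 1641.5 (group 1, 10 cells). By plate, group 10 had medians of 1349, 2182, 2991 and 1404 UMIs. Group 9 was above it on 3 of 4 plates, with a log2 ratio of 0.39 ± 0.542, and below it on plate 4.

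Transcripts of replication and mitosis made up a larger share of the RNA in group 9. At 1000 UMIs per cell, genes listed for S phase and for G2/M together held 1.45, 1.86, 1.93 and 2.08% of UMIs in group 9, against 0.503, 0.568, 0.681 and 0.550% in groups 2 to 5. The difference was 1.25 ± 0.242 percentage points, with group 9 higher on 4 of 4 plates (exact sign-flip p = 0.13), and 1.31 points without thinning, where the shares were 1.85% in group 9 and 0.537% in groups 2 to 5. S phase genes alone took 1.18 ± 0.101% in group 9 and 0.40 ± 0.0596% in groups 2 to 5. G2/M genes took 0.649 ± 0.196% in group 9 and 0.175 ± 0.0188% in groups 2 to 5. Replication-dependent histone genes took 0.704 ± 0.326% in group 9 and 0.171 ± 0.0361% in groups 2 to 5. The histone share in group 9 varied most among plates, with 0.494, 0.406, 0.792 and 1.13%.

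**Figure D1:**
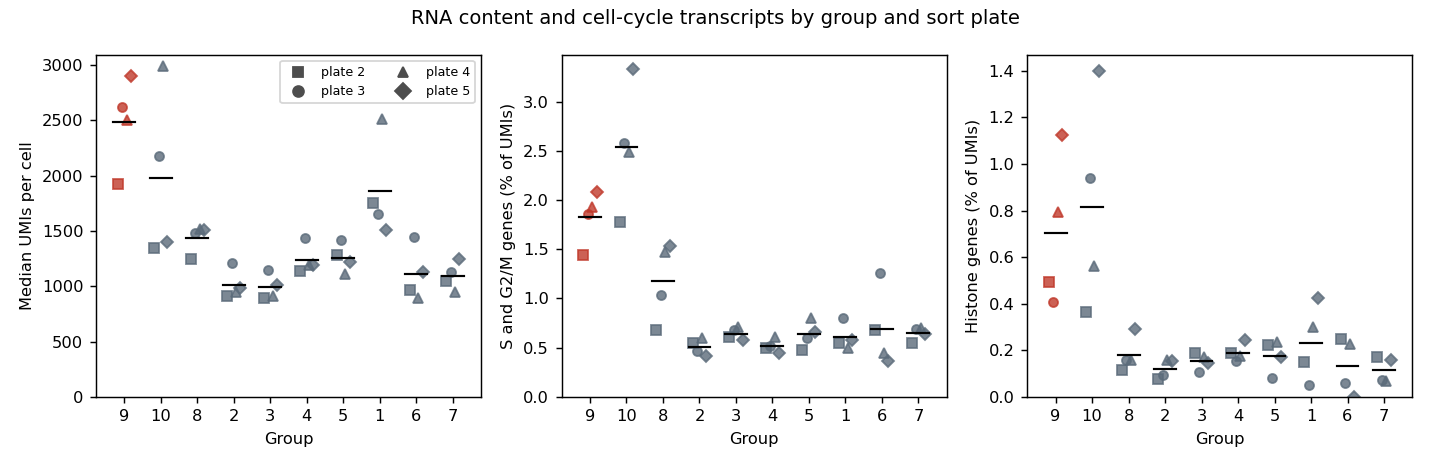
Median UMIs per cell (left), the percent of UMIs from S phase and G2/M genes (middle) and from replication-dependent histone genes (right) in each group of the record, with cells thinned to 1000 UMIs in the middle and right panels. Each symbol is 1 sort plate and each line the mean of 4 plates; group 9 is in red and lies at 1921 to 2902 UMIs per cell, above every plate of groups 2 to 5.

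The 12 genes highest in group 9 by fold change, among called genes of at least 100 CPM whose plates did not overlap, were Hist1h3b, Tk1, Tcf19, Hist1h2an, Pbk, Hist1h2ab, Hist1h1b, Aurkb, Ckap2l, Hist1h2ae, Spc24 and Hist1h1a. Of the 12, 6 encode replication-dependent histones, and the others act in nucleotide supply, transcription or mitosis. Several of them, such as Hist1h3b, Hist1h2an, Hist1h2ab, Tcf19 and Aurkb, were low in groups 2 to 5 and passed the filter on low counts through sets where they were high, so that their place at the top is in part set by that filter. Hist1h3b, a gene for histone H3, was at 126, 97.2, 273 and 247 CPM in group 9, against 0, 3.04, 14.5 and 3.29 CPM in groups 2 to 5. Its log2 fold change was 4.84 ± 0.50 (SE), and it rested on 84 UMIs in group 9 and 6 UMIs in groups 2 to 5. Tk1, the thymidine kinase that salvages thymidine for DNA synthesis, was at 384, 583, 606 and 512 CPM in group 9, against 10.4, 39.5, 36.2 and 26.3 CPM in groups 2 to 5 (log2 fold change 4.09 ± 0.25, adjusted p = 4.71e-41, edgeR). Tcf19, a transcription factor gene first described as a growth-regulated late G1 and S phase gene, averaged 145 ± 14.2 CPM in group 9 and 10.4 ± 4.27 CPM in groups 2 to 5. Hist1h2an, a gene for histone H2A, reached 397 CPM on plate 5 of group 9 and 97.2 to 146 CPM on its other plates, against 7.24 to 26.3 CPM in groups 2 to 5. The histone genes are near-identical copies, and the counting could have placed reads of 1 copy in another, so single histone entries are less certain than their sum.

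The promoters of the 4 highest genes are shown because these genes moved most and because such promoters are known for a few short motifs. Each runs from 250 bases before to 50 bases after the start in RefSeq (GRCm38.p6), 5′ to 3′ on the gene's own strand. Hist1h3b, now named H3c2, lies at chr13:23752095-23752394 on the plus strand. The others are on the minus strand, Tk1 at chr11:117825965-117826264, Tcf19 at chr17:35516775-35517074 and Hist1h2an, now H2ac22, at chr13:21787199-21787498. Capitals mark the CCAAT box (CCAAT), the TATA box (TATAAA), the cell cycle homology region or CHR element (TTTGAA or TTTAAA) and an E2F site (TTTCCCGC, TTTGGCGC, TTTCGCGC or TTTGCCGC), each on either strand.
Hist1h3b: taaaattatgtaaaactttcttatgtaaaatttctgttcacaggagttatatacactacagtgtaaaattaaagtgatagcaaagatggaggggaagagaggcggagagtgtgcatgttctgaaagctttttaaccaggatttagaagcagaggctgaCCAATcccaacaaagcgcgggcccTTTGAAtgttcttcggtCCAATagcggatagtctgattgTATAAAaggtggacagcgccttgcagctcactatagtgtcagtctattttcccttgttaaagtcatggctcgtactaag
Tk1: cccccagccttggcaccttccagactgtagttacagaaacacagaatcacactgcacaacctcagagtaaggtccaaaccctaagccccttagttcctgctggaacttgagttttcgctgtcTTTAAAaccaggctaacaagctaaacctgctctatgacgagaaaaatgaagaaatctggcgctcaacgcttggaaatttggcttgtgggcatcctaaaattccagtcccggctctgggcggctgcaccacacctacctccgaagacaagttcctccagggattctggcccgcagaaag
Tcf19: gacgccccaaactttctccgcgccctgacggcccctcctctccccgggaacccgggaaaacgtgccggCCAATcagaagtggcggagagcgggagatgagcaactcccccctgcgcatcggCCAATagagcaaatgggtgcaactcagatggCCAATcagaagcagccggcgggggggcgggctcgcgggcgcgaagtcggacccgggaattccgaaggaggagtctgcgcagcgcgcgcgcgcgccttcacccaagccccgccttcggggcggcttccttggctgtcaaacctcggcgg
Hist1h2an: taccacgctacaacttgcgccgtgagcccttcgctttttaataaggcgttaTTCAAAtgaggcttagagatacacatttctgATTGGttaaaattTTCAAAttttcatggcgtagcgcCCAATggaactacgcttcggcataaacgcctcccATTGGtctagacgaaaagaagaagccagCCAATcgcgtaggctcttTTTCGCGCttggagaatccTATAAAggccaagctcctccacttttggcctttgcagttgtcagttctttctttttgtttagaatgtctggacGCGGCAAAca
Both histone promoters held CCAAT boxes, a TATA box and CHR matches, and the Hist1h2an promoter also held E2F matches. The last of these, GCGGCAAA, lies among the 50 bases after the start and follows an ATG, so it is not upstream of the gene. Tcf19 had 3 CCAAT boxes and no match to the other motifs, and Tk1 had 1 CHR match. Over the 331 genes higher in group 9 with an entry in the promoter table, 13.8% of 399 promoters held an E2F match and 50.6% a CCAAT box. Among all 3068 promoters of tested genes the shares were 5.08% and 37.7%, and over the whole table of 32851 promoters they were 2.26% and 37.4%. Promoters of genes lower in group 9 held an E2F match in 2.67% and a CCAAT box in 33.9% of 375 cases. CHR matches were in 29.1% of promoters of higher genes, 20.5% of promoters of lower genes, 19.9% of promoters of all tested genes and 27.6% of the whole table. TATA matches were in 9.27% of promoters of higher genes, 10.7% of promoters of lower genes, 6.78% of promoters of all tested genes and 13.6% of the whole table. A match is a stretch of letters and not a shown binding site.

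Most tested S phase genes were higher in group 9. Of 48 genes of DNA replication, 31 passed the filter and 28 of these were called higher and 0 lower. Their median log2 fold change was 1.68, and with cells matched on UMIs it was 1.07, where 14 of 22 were called. Pcna, the sliding clamp of the DNA polymerases, was at 629, 816, 788 and 530 CPM in group 9, against 130, 182, 228 and 187 CPM in groups 2 to 5. The 2 sets did not overlap, and the log2 fold change was 1.84 ± 0.16 (adjusted p = 1.02e-24, edgeR). Mcm6, part of the helicase that opens DNA ahead of the fork, was at 530, 962, 960 and 1032 CPM in group 9, against 182, 383, 474 and 404 CPM in groups 2 to 5. Its plate 2 values were the lowest in both sets. Lig1, the ligase that joins Okazaki fragments, averaged 700 ± 158 CPM in group 9 and 142 ± 34.5 CPM in groups 2 to 5. Dnmt1, which copies DNA methylation onto new strands, averaged 782 ± 103 CPM in group 9 and 222 ± 23.9 CPM in groups 2 to 5. Per cell, the list came to 32.2 ± 7.63 UMIs in group 9 and 4.87 ± 0.783 UMIs in groups 2 to 5. Chaf1b and Rfc1 were among those tested and not called. Members low in groups 2 to 5 could pass the filter through sets where they were high. The counts and medians of this list, and of the G2/M and histone lists below, are thus in part set by that filter.

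G2/M genes were higher as well. Of 56 genes, 40 were tested, 34 were called higher and 0 lower, and the median log2 fold change was 1.92. Top2a, the topoisomerase that untangles chromosomes, was at 166, 855, 808 and 1218 CPM in group 9, against 57.2, 125, 141 and 82.2 CPM in groups 2 to 5. Plate 2 was the lowest plate in both sets, and without it the log2 fold change was 2.96, against 2.83 with all plates. Aurkb, the kinase of the chromosomal passenger complex, was at 53.0, 136, 152 and 176 CPM in group 9, against 5.20, 12.2, 10.9 and 16.4 CPM in groups 2 to 5. Spc24 and Cenph, parts of the kinetochore, had log2 fold changes of 3.05 ± 0.25 and 3.01 ± 0.31. Cdca8, also of the passenger complex, rose by 2.73 ± 0.29 on the log2 scale and Pbk, a mitotic kinase, by 3.55 ± 0.48. Ckap2l, a spindle protein, was at 53.0, 204, 152 and 379 CPM in group 9, against 26.0, 21.3, 18.1 and 9.86 CPM in groups 2 to 5, and its log2 fold change was 3.28, or 2.53 without plate 5. Of the tested genes, 6 were not called. Cdc20, which activates the anaphase-promoting complex, averaged 41.1 ± 24.2 CPM in group 9 and 15.8 ± 13.9 CPM in groups 2 to 5 and was not called (adjusted p = 0.0873, edgeR), though it was without plate 2 (log2 fold change 2.32, adjusted p = 0.00524). Cenpa, the centromeric histone, averaged 95.2 ± 8.97 CPM in group 9 and 57.2 ± 25.8 CPM in groups 2 to 5 and was not called either (adjusted p = 0.155).

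**Figure D2:**
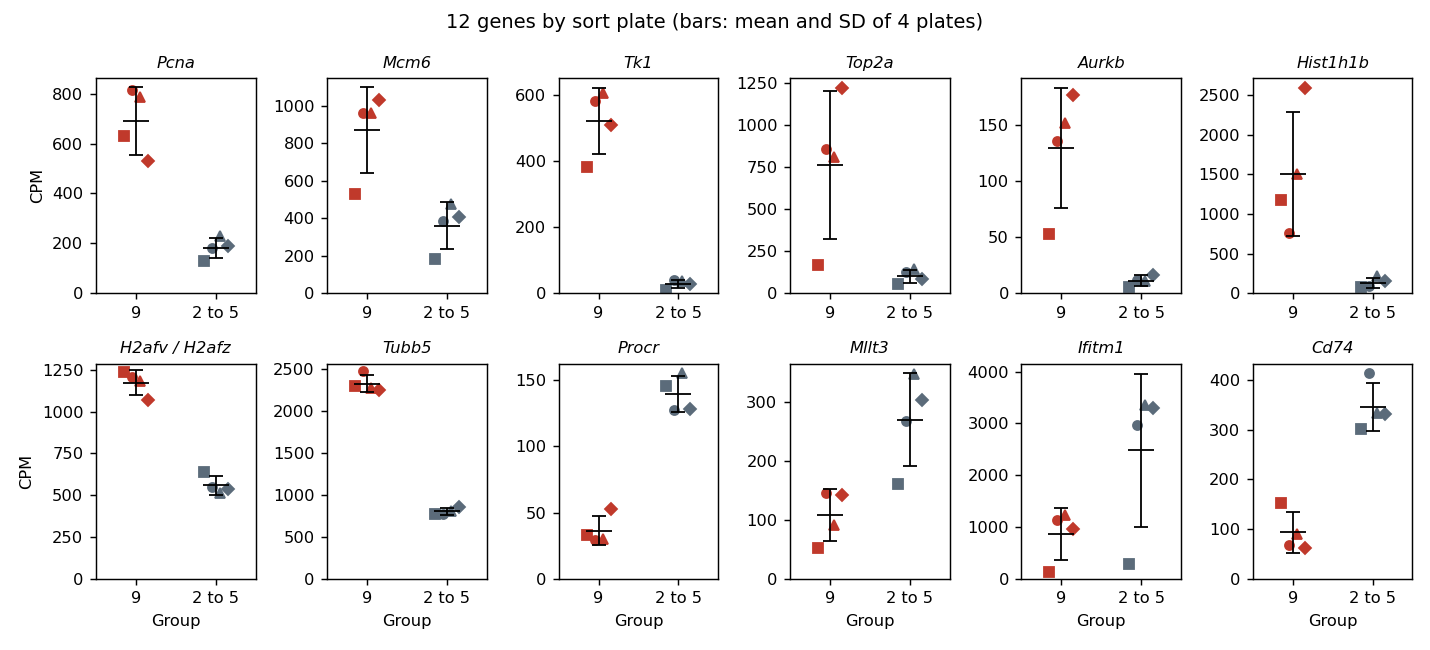
CPM of 12 genes by sort plate (square, plate 2; circle, plate 3; triangle, plate 4; diamond, plate 5), group 9 in red on the left and groups 2 to 5 in grey on the right of each panel, each axis from 0; bars give mean and SD of 4 plates. Replication, mitosis and histone genes lay higher in group 9, while Procr, Mllt3 and Cd74 lay lower, and Ifitm1 was low on plate 2 in both sets (139 and 286 CPM).

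Replication-dependent histone genes, which supply the histones for newly copied DNA, were mostly too low to test, and the tested entries were higher with 1 exception. Transcripts were captured with a poly(T) primer, and how completely it caught histone transcripts was not tested. Histone levels here are therefore those of the captured part only. Of 59 entries, 13 were tested, 12 were called higher and 1 lower, with a median log2 fold change of 2.85. Hist1h1b, a linker histone gene, was at 1172, 758, 1506 and 2586 CPM in group 9, against 83.2, 85.2, 214 and 148 CPM in groups 2 to 5. Per cell this was 4.08 ± 2.80 UMIs in group 9 and 0.165 ± 0.0709 UMIs in groups 2 to 5. The joint entry of Hist1h2be and Hist1h1e was at 1410, 1263, 1980 and 2718 CPM in group 9, against 588, 401, 514 and 658 CPM in groups 2 to 5. Every plate of group 9 lay above every plate of groups 2 to 5 for both entries. With cells matched on UMIs, 6 of 7 tested entries were called higher and the median was 2.00. There the log2 fold change of Hist1h1b was 2.43, against 3.42 with all cells, and that of the joint entry 0.97, against 1.69. When cells were thinned, 7 of 7 tested entries were called higher, with Hist1h1b at 3.01 and the joint entry at 1.55. Hist1h2bc, a gene for histone H2B named after its values were seen, was the 1 lower entry, at 99.3, 29.1, 60.6 and 8.82 CPM in group 9, against 276, 137, 97.7 and 49.3 CPM in groups 2 to 5, where the plates of the 2 sets overlapped. Without the plate block it was not called (adjusted p = 0.132, edgeR).

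Chromatin proteins outside the replication-dependent set rose in part. Of 15 tested entries for histone variants and high mobility group proteins, 9 were called higher and 0 lower (median log2 fold change 0.84). Hmgb2, which bends DNA, was at 556, 942, 778 and 847 CPM in group 9, against 140, 140, 188 and 161 CPM in groups 2 to 5. H2afx, the variant phosphorylated at DNA breaks, averaged 474 ± 55.4 CPM in group 9 and 118 ± 18.3 CPM in groups 2 to 5. The joint entry of H2afv and H2afz had a log2 fold change of 1.00 ± 0.11. The joint entry of the replacement histone genes H3f3a and H3f3b was not called. Of 7 tested tubulin and microtubule entries, 5 were called higher, namely Tuba1b, Tubb5, the joint entry of Tubg1 and Tubg2, Tuba1c and Stmn1. Tuba1b, an alpha-tubulin, was at 3575, 3420, 3466 and 3159 CPM in group 9, against 1066, 958, 1122 and 970 CPM in groups 2 to 5. Tubb5, a beta-tubulin, averaged 2318 ± 101 CPM in group 9 and 801 ± 41.4 CPM in groups 2 to 5. The plates of each set lay close together for both tubulins, plate 2 included.

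Growth genes split in 2 directions. Of 14 tested, 8 were called higher, among them the G1 kinase Cdk4 (1208 ± 64.2 CPM in group 9 and 664 ± 58.8 CPM in groups 2 to 5), the nuclear transport GTPase Ran, its partner Ranbp1 (log2 fold change 1.24 ± 0.12) and the spermidine synthase Srm. Ran was at 1059, 1059, 1162 and 988 CPM in group 9, against 510, 462, 492 and 493 CPM in groups 2 to 5. The other 2 called genes were lower and were named after their values were seen. Ccnd2, the D cyclin that partners Cdk4, was at 563, 622, 616 and 521 CPM in group 9, against 577, 897, 937 and 1042 CPM in groups 2 to 5, so that the sets overlapped through plate 2 (log2 fold change -0.63 ± 0.12, and -0.80 without plate 2). Mycn, a Myc family growth regulator, averaged 129 ± 42.9 CPM in group 9 and 206 ± 29.8 CPM in groups 2 to 5. Neither of the 2 was called without the plate block (adjusted p = 0.077 and 0.117, edgeR). Of 20 genes listed for CDK inhibition and quiescence, only Txnip, an arrestin family protein that restrains glucose uptake and binds thioredoxin, was abundant enough for the test. Txnip was at 397, 428, 647 and 512 CPM in group 9, against 811, 1156, 1390 and 1549 CPM in groups 2 to 5, with no overlap (log2 fold change -1.38 ± 0.12, adjusted p = 2.83e-25).

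**Figure D3:**
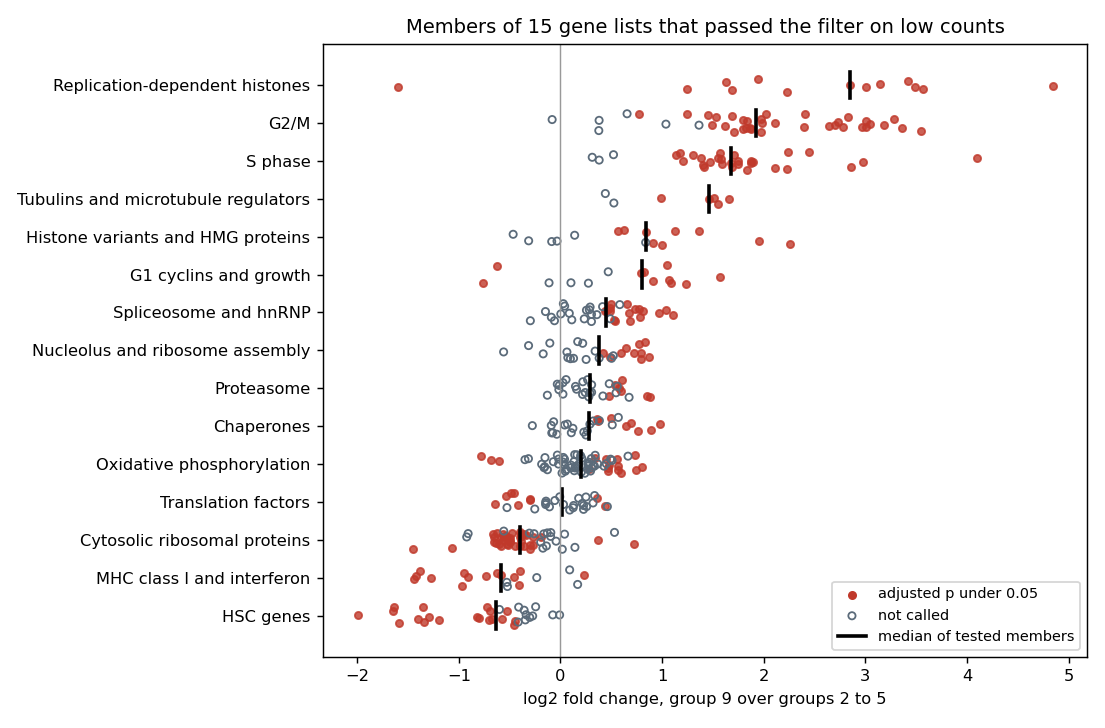
Log2 fold changes, group 9 over groups 2 to 5, of the tested members of 15 gene lists; each point is 1 gene entry, red where the adjusted p was under 0.05 and open where it was not, and black bars are list medians. Histone, G2/M and S phase medians lay at 2.85, 1.92 and 1.68, and the median of HSC genes at -0.64. The first medians are in part set by the filter, which low members could pass through sets where they were high.

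Transcripts of RNA processing rose in part and those of cytosolic ribosomal proteins fell as a share of all UMIs. Of 36 tested spliceosome and hnRNP entries, 17 were called higher and 0 lower (7 without the plate block, 2 of 30 with cells matched on UMIs). In those settings a lower share of all tested genes was called too, as given above. Among thinned cells 5 of 26 entries were called higher. Snrpd1, a core protein of the spliceosomal particles, was at 814, 670, 748 and 671 CPM in group 9, against 343, 332, 347 and 319 CPM in groups 2 to 5. Of 25 tested genes of the nucleolus and of ribosome assembly, 10 were higher and 0 lower (2 without the block). Ncl, which encodes nucleolin, averaged 2572 ± 198 CPM in group 9 and 1745 ± 88.1 CPM in groups 2 to 5, and Nolc1, a nucleolar phosphoprotein, had a log2 fold change of 0.87 ± 0.17. Ncl was not called without the block (adjusted p = 0.0855) or with matched cells (0.224). It was called with thinned cells (log2 fold change 0.51, adjusted p = 8.4e-07, edgeR). Of 55 tested ribosomal protein genes, 36 were called lower and 2 higher, with a median log2 fold change of -0.40. The number called lower was 5 without the plate block, and 13 of 46 with cells matched on UMIs, where the median was -0.20. Thinned cells gave 30 of 46 lower, with a median of -0.37. Rps9 was at 8493, 6218, 5366 and 5462 CPM in group 9, against 11150, 8645, 8823 and 8456 CPM in groups 2 to 5. Within each plate group 9 was the lower set, although its plate 2 value overlapped the other plates of groups 2 to 5. Rps27l, among the higher ones, was named after its values were seen, and it was not called without plate 2 (adjusted p = 0.0812). Counted per cell, ribosomal protein transcripts came to 372 ± 51.9 UMIs in group 9 and 225 ± 17.2 UMIs in groups 2 to 5, so the lower share stood beside a higher count.

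Other biosynthetic and metabolic lists had medians nearer 0, and their counts stand against 13.4% higher and 11.9% lower over all tested genes. Without the plate block or with matched cells a lower share of all tested genes was called, as given above. Counts in those settings stand against that lower share. Of 30 tested translation factors, 2 were called higher and 7 lower (median 0.01), and 0 and 1 without the plate block. The 2 higher ones, named after their values were seen, were Eif4a1, the cap-binding complex helicase, and Eif5a, which was at 1933, 1652, 1687 and 2056 CPM in group 9, against 1368, 1168, 1270 and 1315 CPM in groups 2 to 5. Of 65 tested genes of oxidative phosphorylation, 13 were higher and 3 lower (median 0.21), and 1 and 2 without the block. Atp5g3, of the ATP synthase ring, averaged 1067 ± 138 CPM in group 9 and 686 ± 40.2 CPM in groups 2 to 5. Without the block Atp5g3 was not called (adjusted p = 0.0767), nor were Eif5a (0.153), Eif4a1 (0.421) and Eef1a1 (0.746). Cox7a2l, which joins respiratory complexes into larger assemblies, was lower, at 808, 447, 445 and 441 CPM in group 9, against 869, 806, 887 and 901 CPM in groups 2 to 5, and the other 2 lower genes were Ndufa6 and Uqcrh. Of 26 tested chaperones 8 were higher and 0 lower, and of 29 proteasome subunits 7 were higher and 0 lower. With cells matched on UMIs, 0 of 18 chaperones and 0 of 23 proteasome subunits were called (edgeR). For thinned cells, 5 of 15 chaperones and 0 of 15 proteasome subunits were called higher. Hspd1, the mitochondrial chaperonin, averaged 302 ± 68.5 CPM in group 9 and 155 ± 7.46 CPM in groups 2 to 5, and Psmc5, a proteasomal ATPase, 236 ± 56.5 CPM in group 9 and 123 ± 21.5 CPM in groups 2 to 5. Among 9 tested glycolytic enzymes Ldha was called higher and Ldhb and Aldoa lower, and none of the 3 was called without the plate block.

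Genes of HSC identity were lower in group 9. Of 45 genes in the list, 30 were tested, 19 were called lower and 0 higher, and the median log2 fold change was -0.64 (20 of 32 lower without plate 2, 10 of 30 without the plate block). With cells matched on UMIs, 6 of 23 were called lower and the median of -0.65 was as far from 0. The same 23 genes had a median of -0.58 with all cells. Thinning left 20 tested genes, of which 12 were called lower, with a median of -0.67. Procr was at 33.1, 29.1, 30.3 and 53.0 CPM in group 9, against 146, 128, 156 and 128 CPM in groups 2 to 5. Its log2 fold change was -1.99 ± 0.37 (adjusted p = 2.99e-06, edgeR). Hlf, a transcription factor of HSC maintenance, was at 212, 146, 222 and 185 CPM in group 9, against 452, 587, 391 and 457 CPM in groups 2 to 5. Mllt3, which sustains HSC gene expression through chromatin, was at 53.0, 146, 90.9 and 141 CPM in group 9, against 161, 268, 347 and 302 CPM in groups 2 to 5. The plates of group 9 lay below all plates of groups 2 to 5 for all 3 genes, but with cells matched on UMIs Mllt3 was not called (log2 fold change -0.90, adjusted p = 0.162, edgeR) and Procr was too low to test. Mecom, a zinc finger factor of long-term HSCs, averaged 68.0 ± 30.3 CPM in group 9 and 161 ± 33.2 CPM in groups 2 to 5. Pdzk1ip1, which encodes a small membrane protein, averaged 366 ± 150 CPM in group 9 and 864 ± 98.7 CPM in groups 2 to 5.

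Ifitm1 and Ifitm3 were lower in group 9 at very different levels on plate 2 and on the others. Ifitm1, an interferon-inducible membrane protein, was at 139, 1137, 1223 and 971 CPM in group 9, against 286, 2974, 3362 and 3308 CPM in groups 2 to 5. Both sets were far lower on plate 2, and group 9 was lower within every plate, with a log2 fold change of -1.59 ± 0.09, and -1.62 without plate 2. Ifitm1 and Ifitm3 (log2 fold change -0.80 ± 0.11) were not called without the plate block, where their adjusted p was 0.119 and 0.531. Lmo2 and Runx1, factors of blood cell formation, had smaller log2 fold changes of -0.46 ± 0.11 and -0.53 ± 0.20, and neither call was stable. Runx1 was not called without plate 2 (adjusted p = 0.108), without the plate block (0.14) or by DESeq2 (0.101). Lmo2 was not called without the block (0.115) or with matched cells (0.20). Once cells were thinned, Lmo2 was called (log2 fold change -0.57, adjusted p = 0.0017, edgeR) and Runx1 was not (-0.56, adjusted p = 0.147). Kit, the stem cell factor receptor, averaged 275 ± 114 CPM in group 9 and 342 ± 111 CPM in groups 2 to 5 and was not called (adjusted p = 0.0781), though it was with matched cells (log2 fold change -0.97, adjusted p = 0.0184), and Meis1 and Cd81 were not called either. Gata2, a factor of stem and progenitor cells, was at 702, 340, 334 and 300 CPM in group 9, against 577, 523, 478 and 431 CPM in groups 2 to 5. Its difference had opposite signs on plate 2 and on the others, and without plate 2 it was called lower (log2 fold change -0.64, adjusted p = 0.0029, edgeR). Per cell, the whole list came to 26.7 ± 4.99 UMIs in group 9 and 20.5 ± 3.70 UMIs in groups 2 to 5, so that its share was lower and its count per cell was not. For Procr the count was also lower, with 0.0974 ± 0.0466 UMIs per cell in group 9 and 0.175 ± 0.0095 in groups 2 to 5.

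The sort label was checked on 13 HSC markers. All 13 were detected in group 9, 9 were tested, 6 were called lower than in groups 2 to 5 and 0 higher. Ly6a, which encodes the sorting marker Sca-1, had 12 UMIs in group 9 and 64 UMIs in groups 2 to 5, too few for the test, with a mean of 24.8 CPM in group 9 and 55.6 CPM in groups 2 to 5. Slamf1, which encodes CD150, had 11 UMIs in group 9 and 20 UMIs in groups 2 to 5, also too few, with a mean of 22.3 CPM in group 9 and 16.4 CPM in groups 2 to 5.

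The other genes lowest in group 9 came from several functions. The 12 lowest called genes under the same rule were Ptplad2, Procr, Cd74, Pik3ip1, Gimap5, Mettl7a1, Smpdl3a, Stxbp4, Itsn1, Zfp467, Gimap6 and Ltb. Pik3ip1, an inhibitor of PI3 kinase, was at 72.8, 68.0, 40.4 and 97.1 CPM in group 9, against 302, 216, 253 and 204 CPM in groups 2 to 5. Gimap5 and Gimap6 are GTPases known from lymphocytes, and Gimap6 averaged 146 ± 53.3 CPM in group 9 and 436 ± 43.1 CPM in groups 2 to 5. With cells matched on UMIs the log2 fold change of Pik3ip1 was -1.04, against -1.86 with all cells. That of Gimap6 was -0.97, against -1.65, and neither was called (adjusted p = 0.146 and 0.0565, edgeR). In thinned cells Gimap6 was called (log2 fold change -1.62, adjusted p = 1.2e-07, edgeR), and Pik3ip1 was not tested. Cd74, the invariant chain of MHC class II, was at 152, 68.0, 90.9 and 61.8 CPM in group 9, against 302, 414, 333 and 332 CPM in groups 2 to 5. Of 19 tested genes of MHC class I and the interferon response, 13 were lower and 1 higher (median log2 fold change -0.58, and 7 lower and 0 higher without the plate block). The higher entry joins H2-Q7 with H2-Q9, H2-Q6 and Bat1a and was named after its value was seen, and without plate 2 it was not called (adjusted p = 0.127). H2-K1, an MHC class I heavy chain, was at 1417, 1399, 1213 and 1253 CPM in group 9, against 1836, 1715, 1741 and 1539 CPM in groups 2 to 5, and was not called without the block (adjusted p = 0.0667).

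With all plates, no tested marker of another blood cell type was called higher in group 9, but few were tested. The tests covered 6 erythroid, 5 megakaryocyte and platelet, 4 B cell, 3 granulocyte and monocyte, and 1 dendritic cell and macrophage marker. No T and NK, mast cell and basophil, or endothelial and stromal marker was abundant enough for the test. Over all tested genes, 13.4% were called higher and 11.9% lower. Granulocyte and monocyte markers summed to 803 to 1108 CPM over the plates of group 9 and to 1590 to 1831 CPM over those of groups 2 to 5, and all 3 tested members were lower, led in abundance by Prtn3, a granule protease (580 ± 131 CPM in group 9 and 1029 ± 152 CPM in groups 2 to 5). Without plate 2 the other members, Fcer1g and the joint entry of Lyz1 and Lyz2, were not called (adjusted p = 0.0887 and 0.0857, edgeR). B cell markers summed to 374 to 543 CPM in group 9 and 812 to 945 CPM in groups 2 to 5. The defining markers Cd79a, Ms4a1 and Pax5 had 0 UMIs in group 9. Of the 11 B cell entries, 4 had 0 UMIs in group 9 and 5 had 0 UMIs in groups 2 to 5. Erythroid markers summed to 2555 to 4187 CPM in group 9 and 3246 to 4087 CPM in groups 2 to 5, with 4 of 6 tested members lower, among them the regulator Gfi1b and Car2, a carbonic anhydrase. Without the plate block 0 of these 6 were called (edgeR), and without plate 2 the split was 1 higher and 2 lower. Megakaryocyte and platelet markers summed to 867 to 1292 CPM in group 9 and 947 to 1274 CPM in groups 2 to 5. Dendritic cell and macrophage markers summed to 199 to 340 CPM in group 9 and 302 to 423 CPM in groups 2 to 5. T and NK cell markers reached at most 70.7 CPM in group 9 and 54.3 CPM in groups 2 to 5, and endothelial and stromal markers at most 106 CPM in group 9 and 137 CPM in groups 2 to 5. Mast cell and basophil markers reached at most 8.82 CPM in group 9 and 0 in groups 2 to 5. Of these 3 low lists, 8 of 11, 9 of 12 and 6 of 7 entries had 0 UMIs in group 9. In groups 2 to 5 the entries at 0 UMIs were 8, 5 and 7.

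Group 9 cells were bright for the CFP reporter. Each cell was ranked within its plate from 0 to 100 in each cytometer channel. The median CFP rank was 78.8, 90.6, 89.0 and 87.6 in group 9, against 40.3, 41.2, 38.0 and 39.1 in groups 2 to 5. The difference was 46.8 ± 5.68 rank points on 4 of 4 plates, with an exact sign-flip p of 0.13 (0.146 adjusted over 14 channels). With cells matched on UMIs it was 24.5 points, and then APC-Alexa Fluor 750 and side scatter area differed by more, by 26.8 and 26.3 points. Of the 20% brightest cells of each plate, 49.3, 31.9, 37.5 and 31.1% were in group 9, against 7.04, 4.35, 0 and 0% of the 20% dimmest. In all, 107 of 286 bright, 73 of 858 intermediate and 8 of 286 dim cells were in group 9. With 0 of 72 and 0 of 74 dim cells on plates 4 and 5, shares of up to 4.17% and 4.05% remained possible from counting error alone. Bright minus dim was 34.6 ± 6.56 percentage points (4 of 4 plates, exact p = 0.13). Within group 9, 56.9% of cells were bright and 4.26% dim. Brightness was not particular to group 9. Group 10 had median CFP ranks of 42.8, 87.0, 91.0 and 86.3, above group 9 on plate 4 and below it on the others.

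Scatter and dye channels differed too. The width of forward scatter, which grows with cell size, ranked at 75.8 ± 5.18 in group 9 and 41.0 ± 1.31 in groups 2 to 5, and the area of side scatter, which depends on internal structure, at 73.3 ± 4.98 in group 9 and 40.2 ± 1.86 in groups 2 to 5. The area and height of forward scatter differed in opposite directions on different plates. Forward scatter area ranked at 66.3, 55.2, 47.4 and 39.1 in group 9, against 44.5, 46.4, 48.8 and 51.4 in groups 2 to 5. The record names dyes and no antibodies. APC-Alexa Fluor 750 ranked at 78.2 ± 4.90 in group 9 and 40.1 ± 2.68 in groups 2 to 5, a difference of 38.1 points. DAPI, a DNA dye that enters dead cells, ranked at 73.6 ± 4.92 in group 9 and 41.8 ± 3.02 in groups 2 to 5, and that difference was 12.7 points with matched cells. On average, group 10 ranked above group 9 in forward scatter width (86.3 ± 10.7), side scatter area (83.0 ± 10.6) and APC-Alexa Fluor 750 (82.6 ± 10.1). In APC-Alexa Fluor 750, however, group 9 was above group 10 on 2 of 4 plates. In DAPI group 10 ranked below group 9 on average, at 63.6 ± 10.6, and on 3 of 4 plates. PE-Cy7 ranked at 71.0 ± 3.70 in group 9 and 40.7 ± 1.97 in groups 2 to 5, a difference of 30.3 points, and of 14.9 points with matched cells. PE ranked at 65.9 ± 6.18 in group 9 and 44.6 ± 2.77 in groups 2 to 5, and PE-Cy5 at 60.9 ± 2.44 in group 9 and 47.1 ± 1.61 in groups 2 to 5. Alexa Fluor 700 was the channel that ranked lower in group 9 on every plate, at 39.5, 30.3, 35.9 and 43.9, against 54.9, 56.8, 57.2 and 54.1 in groups 2 to 5. APC differed by 7.93 ± 5.12 points, and by -5.195 points with matched cells. Wells without a usable value were left out, which for PE were 5 of group 9 and 35 of groups 2 to 5, for PE-Cy5 0 of group 9 and 14 of groups 2 to 5, for PE-Cy7 2 of group 9 and 65 of groups 2 to 5, and for DAPI 8 of group 9 and 51 of groups 2 to 5.

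**Figure D4:**
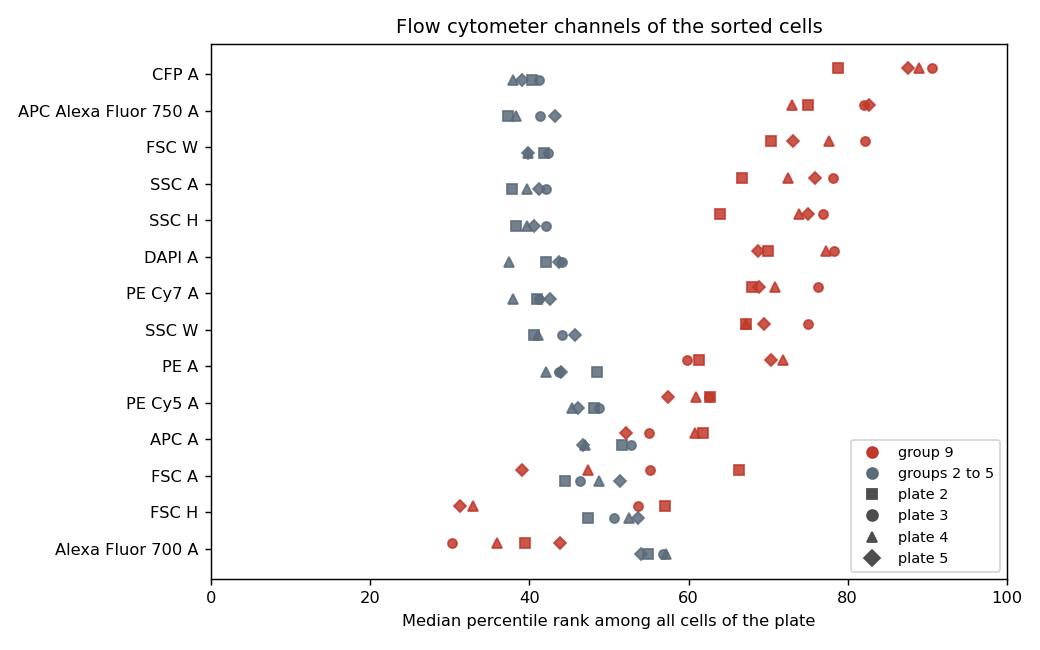
Median within-plate percentile rank of group 9 (red, upper row of each channel) and groups 2 to 5 (grey, lower row) in 14 cytometer channels; each symbol is 1 plate. With all cells CFP had the largest difference, with 78.8 to 90.6 in group 9 and 38.0 to 41.2 in groups 2 to 5, and Alexa Fluor 700 ran the other way.

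Cells within group 9 differed widely in cell-cycle and histone transcripts. Among the 178 group 9 cells with at least 1000 UMIs, thinned to 1000, the S phase count ran from 1 to 25 with a median of 11.5, against 0 to 18 with a median of 3 in 568 cells of groups 2 to 5. G2/M UMIs ran from 0 to 29 with a median of 4 in group 9, and from 0 to 13 with a median of 1 in groups 2 to 5. Histone UMIs ran from 0 to 52 with a median of 2 in group 9, and from 0 to 15 with a median of 1 in groups 2 to 5. Thus 44 of the 178 cells (24.7%) had no histone UMI, close to the 28.2% of groups 2 to 5, while 47 cells (26.4%) had 10 or more, against 5 of 568 cells (0.88%) in groups 2 to 5. These are cells of shared plates and are described without a test.

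Across the 178 cells, histone UMIs went with G2/M UMIs (mean Spearman correlation within plates 0.613, 0.547 to 0.692) while their correlation with S phase UMIs was -0.031 (-0.229 to 0.222). The points share plates and a fixed depth of 1000 UMIs. Histone UMIs also went with the CFP rank (0.437, 0.330 to 0.630) and with forward scatter width (0.50, 0.169 to 0.695). G2/M UMIs correlated with forward scatter width at 0.498 (0.111 to 0.776), and S phase UMIs at -0.035 (-0.286 to 0.177). A cell's full UMI total correlated with its CFP rank at 0.470 (0.188 to 0.690).

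**Figure D5:**
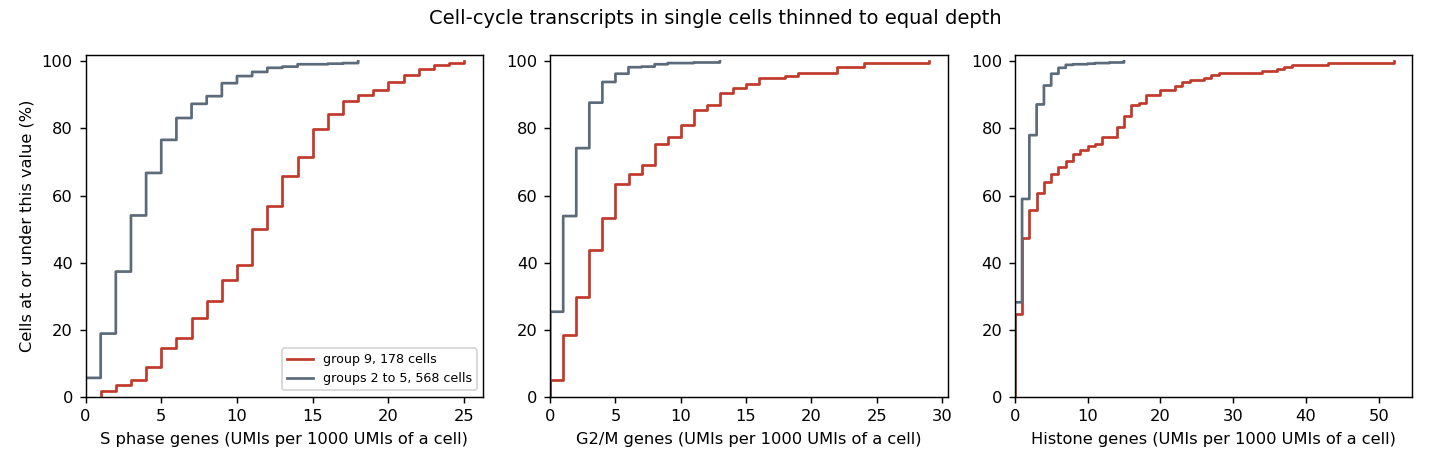
Cumulative percent of cells (vertical axis) at or under a number of S phase, G2/M or histone UMIs (horizontal axes) after thinning to 1000 UMIs, for 178 group 9 cells in red and 568 cells of groups 2 to 5 in grey. The S phase curves are apart throughout, while the histone curves start near each other, with 24.7% of group 9 cells and 28.2% of cells of groups 2 to 5 at 0, and part above.

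Group 8 came nearest to group 9 in S phase transcripts. Between them, 109 of 2962 genes (3.68%) were called, 53 higher (1.79%) and 56 lower (1.89%) in group 9, and 1 without the plate block. S phase genes summed to 12260 ± 752 CPM in group 9 and 9132 ± 2340 CPM in group 8, with 5 of 31 tested members called higher. All 12 called members of the 13 tested histone entries were higher in group 9, the histone list summing to 8065 ± 3650 CPM in group 9 and 1866 ± 869 CPM in group 8. Hist1h1d, a linker histone gene, was at 510, 447, 667 and 856 CPM in group 9, against 116, 52.8, 132 and 117 CPM in group 8 (log2 fold change 2.56 ± 0.26). Rbbp4, a histone-binding chaperone, averaged 156 ± 26.7 CPM in group 9 and 27.2 CPM in group 8. G2/M genes were higher for 11 of 40 tested, and ribosomal protein genes were lower for 28 of 55. The growth list summed to 7522 ± 318 CPM in group 9 and 7270 ± 425 CPM in group 8, with 0 of 14 higher and 1 lower. Of 26 chaperones, 29 proteasome subunits and 65 genes of oxidative phosphorylation, 0 were higher, and 1 of the last was lower. Spliceosome entries were higher for 1 of 36, and Txnip was not called. HSC genes were lower for 1 of 30 and higher for 0, with a median log2 fold change of -0.11. Median UMIs per cell were higher in group 9 than in group 8 on 4 of 4 plates (1.71-fold), and its CFP rank was 86.5 ± 5.27, against 66.8 ± 6.30 in group 8.

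Group 9 held more S phase and less G2/M transcript than group 10. Of 2962 genes 202 (6.82%) were called, 112 higher (3.78%) and 90 lower (3.04%) in group 9, or 49 and 101 by DESeq2, with 19 of 31 S phase genes higher and 24 of 40 G2/M genes lower. Hells, a chromatin remodeller, and Ung, a uracil glycosylase, averaged 202 ± 62.0 and 128 ± 40.0 CPM in group 9 and had 0 UMIs in group 10, which makes them at least 5.39-fold and 3.22-fold higher in group 9 against a floor of 3 counts over that group's 77722 UMIs. Slbp, which binds histone messages, averaged 159 ± 48.1 CPM in group 9 and had 1 UMI in group 10. Hells, Ung and Slbp passed the filter on low counts through sets other than group 10. Their place among the largest differences is in part set by that filter. Without plate 5 neither Ung (adjusted p = 0.0507, edgeR) nor Slbp (0.0617) was called, and without the plate block Slbp was not called (0.0624). Cenpf, a kinetochore protein, was at 33.1, 87.4, 111 and 106 CPM in group 9, against 674, 795, 676 and 1029 CPM in group 10. Histone entries summed to 8065 ± 3650 CPM in group 9 and 7874 ± 5200 CPM in group 10.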

How the data were processed

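Per the labels' protocols, each HSC was index sorted into a well whose poly(T) primer carried a barcode, and cDNA was pooled before amplification. The authors deposited UMI counts per gene entry and well, not normalized, for 27297 entries and 1536 wells. They also deposited an index record of 1430 wells. As deposited, its scatter values read as a linear intensity and its fluorescence values as log10 channel numbers, and the scale behind either is not stated. The submitters' processing notes name bcl2fastq 2.15.0.4, STAR, cutadapt, Bismark 0.19.0, featureCounts and DESeq2, and mm10 and mm9 as builds, with no role. The sources used here do not say how UMIs were counted. Bulk and bisulphite samples were not analysed here.

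Wells of the record were joined to the counts by well ID, and 0 IDs were duplicated. Every recorded well had at least 511 UMIs. The 106 wells without a record had at most 502 and were left out, and no doublet caller was run on these single-cell sorts. UMIs were summed per plate for group 9 (98965 to 151065 UMIs per plate), groups 2 to 5 (192265 to 328844), group 8 (42939 to 98117) and group 10 (13840 to 22253). All 4 sets entered a single fit of edgeR 4.0.16 under R 4.3.3, its quasi-likelihood test, with plate as a block, filterByExpr on low counts, TMM scaling and a Benjamini-Hochberg threshold of 0.05. There were 9 residual degrees of freedom and a prior of 329.5, so precision came mostly from the spread over genes. Depth at this scale limits the test to abundant genes. The block comes from the record, since each plate holds cells of every group. Same-plate deviations of group 9 and groups 2 to 5 correlated at 0.306 to 0.771, and those of group 9 and group 10 at 0.092 to 0.458. The fit was tested on simulated data.

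Thinning drew 1000 UMIs per cell with a fixed seed. Channels were ranked within plates in Python 3.11.15 (numpy, scipy, pandas), and values per plate were compared by exact permutation of the signs of the 4 plate differences, two-sided. Intervals and limits for counts of 0 cover counting error only. Promoters came from RefSeq (GRCm38.p6), with old symbols matched through its synonyms.

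Genes are named by a rule. It takes the 12 highest and 12 lowest called genes of at least 100 CPM without overlap of plates, up to 4 called members and the most abundant member of each list, all tested HSC genes, and the 5 most changed each way against groups 8 and 10. Some of these are left out of the text, and genes outside the rule are named to account for small counts. The members and lists were chosen with earlier results of these data known. Lists of redox enzymes, actin cytoskeleton, immediate early and multipotent progenitor genes had 2 higher and 2 lower of 15, 1 and 5 of 17, 0 and 2 of 4, and 0 and 1 of 2 tested entries. Mitochondrially encoded genes had 0 tested entries. Some genes are not reported here. Alternatives were RLE scaling, DESeq2 1.42.0, no filter, no block, leaving out each plate, thinned or matched cells, cells of at least 1000 UMIs, each of groups 2 to 5 alone as reference, cell-cycle and histone genes left out, and fewer sets in the fit.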

Additional observations from a re-analysis of the deposited data

Results flagged for a closer look

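Values of 1 plate far from the other 3 were sought in 248 groups of 4 plates by Dixon's criterion (gap over range above 0.829), and 18 were found, where chance gives about 1 in 20. Plate 2 held 21.07% of its cells in group 9, the highest share of the 4 plates, and 16.36% of its CFP-intermediate cells. Plate 2 was also the lowest plate for Ifitm1 (286.1 CPM), Ifitm3 (114.4 CPM), Ly6e (390.1 CPM) and Uqcrh (67.62 CPM) in groups 2 to 5, and for Mcm6 (529.6 CPM), Hsp90aa1 (19.86 CPM) and Ly6e (172.1 CPM) in group 9. It was the highest plate for Pdzk1ip1 (589.2 CPM), Gata2 (701.7 CPM) and Cox7a2l (807.6 CPM) in group 9, and for Rps9 (11150 CPM) and Cdc20 (36.41 CPM) in groups 2 to 5. Plate 3 was lowest for the histone share (0.1175%) and for Atp5g3 (626.4 CPM) in groups 2 to 5. Plate 5 was highest for Hist1h2an (397.1 CPM) and Procr (52.95 CPM) in group 9. What sets plate 2 apart was not tested.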

How the results depend on the processing

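The count of genes called between group 9 and groups 2 to 5 (749) fell to 317 with no replicate block on plate, 283 of 936 tested with cells thinned to 1000 UMIs, 140 of 1445 with cells matched on UMIs, and 302, 374 and 405 with group 2, 3 or 5 alone as reference. Thinning, matching and a smaller reference left fewer UMIs and fewer genes to test. Leaving out 1 plate gave 518 to 666 genes, and DESeq2 gave 530, all 530 among the 749. With group 10 left out of the fit, an alternative chosen after the data were seen, 762 were called. Against group 8 (109 genes), no replicate block gave 1 and thinning 44. Against group 10 (202 genes), no filter gave 386 (348 higher and 38 lower), no replicate block 109, thinning 38, RLE scaling 196 (93 higher and 103 lower), and leaving out 1 plate 127 (plate 2) to 189. No filter also moved the median log2 fold change of all genes against group 10 to 0.48. Kit turned from -0.41 to 0.00 and 0.12 against groups 2 and 3 alone, Meis1 from -0.30 to 0.12 against group 3 alone, and Cd81 from -0.08 to 0.06 with matched cells, none of them called. Forward scatter area, 4.23 rank points, was -2.63 with matched cells and ran from -1.61 (without plate 2) to 9.74 when 1 plate was left out, and APC turned to -5.195 with matched cells. UMIs per cell, the S and G2/M share and the CFP share kept their direction under every alternative run. The causes of these changes were not tested beyond the smaller numbers of genes and cells named.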
